A study of Mus musculus with 24 samples.

Results

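The zinc finger genes that carry a numbered Zfp symbol were followed across 8 groups of mouse macrophage RNA sequencing libraries. A gene counted as a member if its GENCODE M21 symbol was Zfp followed by digits alone, with Zfp36 set aside, and if its raw reads summed to 1000 or more over the 24 libraries. Of 372 such symbols among the 43629 gene identifiers, 146 were members and 226 fell under the minimum, 11 of them with no read. The members were chosen by these read totals, and the family was picked on its log2 changes after 1 h of LPS, so that contrast is given here as a description. The nearest symbols under the minimum were Zfp764 (995 reads, log2 change of -0.55 with LPS at 1 h) and Zfp74 (976 reads, -1.71). The nearest over it were Zfp771 (1015 reads, -0.18) and Zfp41 (1018 reads, -0.94). All 146 members are protein coding, and all passed the filter on low counts.

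Most proteins of this family carry C2H2 zinc fingers, short repeats that each fold around a zinc ion and read a few bases of DNA, strung together in arrays. Many also have a KRAB box, which recruits the corepressor TRIM28 and with it the histone methyltransferase SETDB1. Such KRAB proteins are best known for silencing retroelements and for keeping imprints. Proteins of the family without a KRAB box include transcription factors, RNA-binding proteins and ubiquitin ligases. LPS, a component of bacterial walls, and the cytokines interferon gamma (IFNg) and interleukin 4 (IL-4) each switch macrophages to a different state of activation.

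The cells were bone marrow-derived macrophages of wild type C57BL/6 mice, used at day 7 of culture in CSF-1 (20 ng/mL), a cytokine on which macrophages depend. At each of 1 h and 18 h there were 4 groups of 3 libraries: LPS with 50 ng/mL IFNg, LPS alone, 20 ng/mL IL-4, and unstimulated cells. For LPS the labels name doses of 20 and 100 ng/mL without saying which applied to which group. Whether replicates came from separate mice or dishes is not stated, so the p-values rest on library-to-library spread that may be only technical.

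Library totals ran from 4181890 to 8122945 reads, with 15450 to 19108 genes detected. All 8 macrophage markers had reads, at a summed 11036 to 25011 CPM per library (CPM are counts relative to the library size, scaled by TMM). Neutrophil markers summed to 26.5 to 216 CPM and those of other cell types to no more than 17.2 CPM, and Cd3e, Mcpt4 and Hbb-bs had no reads. In bulk RNA, fewer cells of a type and less RNA per cell cannot be told apart. Replicate 2 of LPS at 18 h and replicate 2 of IL-4 at 18 h stood apart from their groups: chi-square per gene between replicates was 9.26 and 11.4 for pairs with the LPS library and 2.42 for the other LPS pair, and for IL-4 7.46 and 4.59 for pairs with replicate 2 and 3.27 for the other pair. Counts of all members for LPS and for IL-4 against unstimulated cells at 18 h are given with and without them. Counts of listed members and the splits of the differences between times are given only with them.

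The members were transcripts of low to moderate abundance. Their CPM summed to 3112 ± 38.3 with LPS and IFNg, 3213 ± 109 with LPS, 3419 ± 126 with IL-4 and 3374 ± 119 in unstimulated cells at 1 h (SD, n = 3 each). The 18 h sums were 4229 ± 104 with LPS and IFNg, 3603 ± 245 with LPS, 3211 ± 180 with IL-4 and 3266 ± 27.3 in unstimulated cells (SD, n = 3 each). Without TMM, members at 18 h held 0.332 to 0.352% of reads with LPS and IFNg and 0.279 to 0.336% with LPS. They held 0.332 to 0.374% with IL-4 and 0.376 to 0.385% in unstimulated cells at 18 h. The order of the 18 h groups thus depended on the scaling. Per kilobase of exon, the highest levels in unstimulated cells at 1 h were those of Zfp706 (17.6 CPM per kb), Zfp263 (17.2), Zfp91 (15.6) and Zfp703 (15.1). The distance between a member's lowest and highest group mean was 0.24 to 3.54 on the log2 scale with a median of 1.27, against a median of 1.17 over the 12765 genes tested. LPS with IFNg at 1 h was the lowest of the 8 groups for 47.3% of members, against 13.5% of all genes tested. LPS with IFNg at 18 h was the highest for 47.3% of members, against 26.4% of all genes tested. Both rankings used TMM-scaled values.

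**Figure D1:**
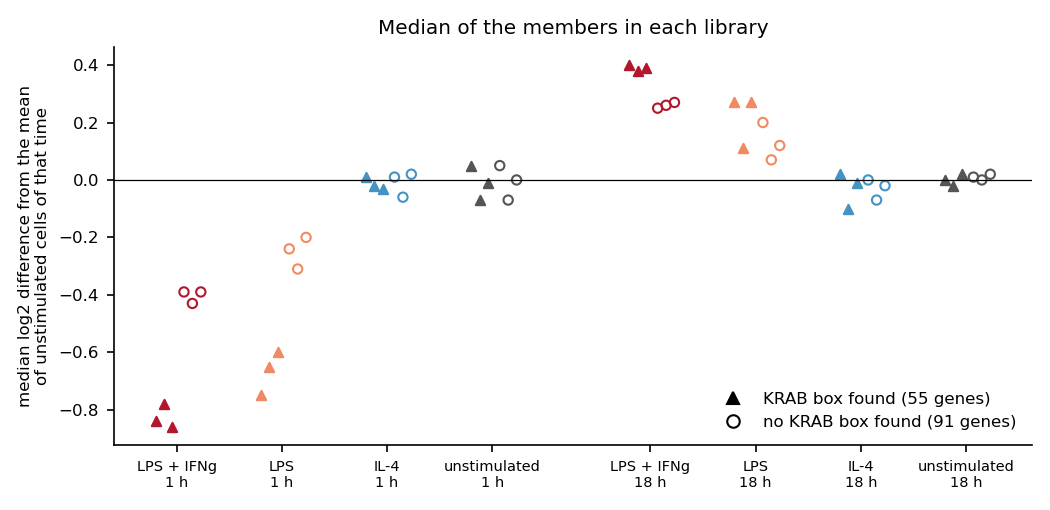
Median over the numbered Zfp genes of the log2 difference from the mean of unstimulated cells of the same time, 1 point per library, for the 55 genes with a KRAB box found (triangles) and the 91 without (circles). All 3 libraries of LPS with IFNg at 1 h lie between -0.86 and -0.78 for KRAB genes and between -0.43 and -0.39 for the others, and at 18 h all 3 lie between 0.25 and 0.40; values are TMM-scaled, and scaled to library totals alone the median change at 18 h is -0.21.

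At 1 h the members were lower in cells given LPS with IFNg than in cells given IL-4, a comparison that shares no library with the LPS contrast behind the choice. With edgeR's quasi-likelihood test and Benjamini-Hochberg adjustment over all genes tested, 84 members fell and 14 rose at an adjusted p under 0.05. Of all genes tested 30.3% were called, 14.8% lower and 15.5% higher. The median log2 change of the members was -0.52, with quartiles of -0.99 and -0.09, against 0.01 with quartiles of -0.22 and 0.22 over all genes. A fall of 2-fold or more was fitted for 24.7% of members (36 genes) and for 4.89% of all genes. The 3 libraries with LPS and IFNg lay below all 3 with IL-4 for 92 members, a pattern that 21.3% of all genes showed, and above them for 17, against 23.3% of all genes. Earlier results of these data already showed falls of zinc finger genes with LPS and IFNg, so these counts describe the fall and are no independent evidence of its direction.

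Against unstimulated cells at 1 h, which are also the controls of the LPS contrast, LPS with IFNg gave 83 members lower and 13 higher, with a median of -0.54 (29.3% of all genes were called, 14.6% lower and 14.7% higher). In each library with LPS and IFNg the median member stood at -0.53, -0.55 and -0.49 from the mean of unstimulated cells, while the 3 unstimulated libraries stood at -0.07 to 0.05. The median over all genes stayed between -0.02 and 0.01 in every library. Macrophage markers summed to 16304 to 18827 CPM with LPS and IFNg, 15894 to 18376 with IL-4 and 15384 to 18198 in unstimulated cells at 1 h, so their ranges overlapped. Dendritic cell markers summed to 3.77 to 5.37 CPM with LPS and IFNg against 1.66 to 2.24 with IL-4 and 2.06 to 3.59 in unstimulated cells. Neutrophil markers summed to 156 to 216 CPM with LPS and IFNg, 131 to 170 with IL-4 and 125 to 163 in unstimulated cells. The part of either list in the fall was not tested. Without TMM, on library totals alone, the median of all genes shifted by -0.26 against IL-4 and by -0.25 against unstimulated cells, and 109 and 118 members were lower, with 11 higher in each.

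**Figure D2:**
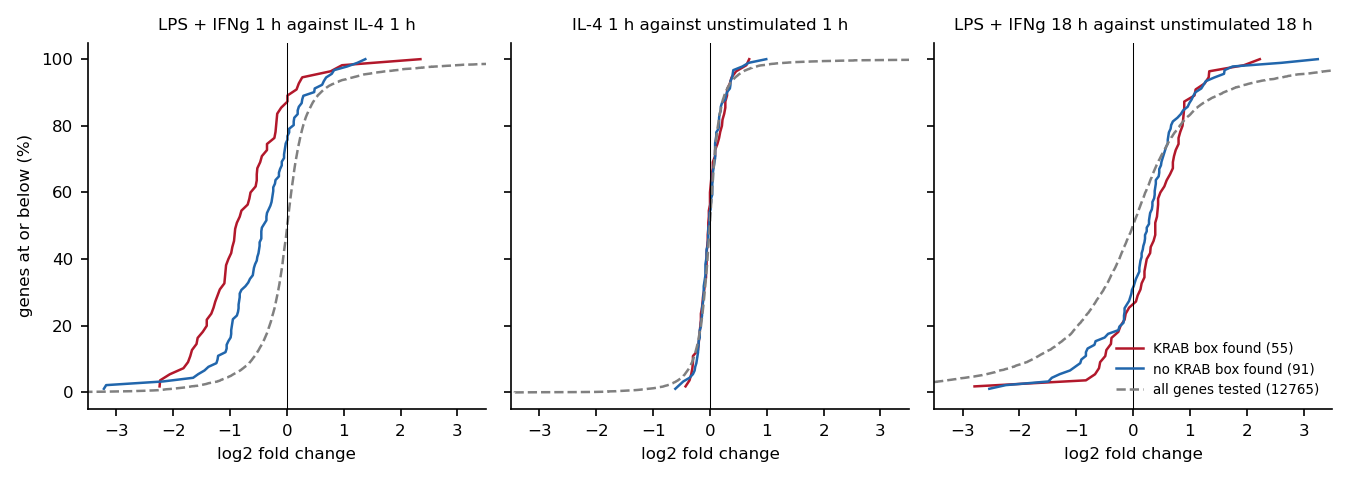
Share of genes (percent) at or below each log2 fold change, for KRAB genes, the other numbered Zfp genes and all 12765 genes tested (dashed). The member curves lie to the left of all genes for LPS with IFNg against IL-4 at 1 h (medians -0.88 and -0.40 against 0.01), close to them for IL-4 against unstimulated cells at 1 h, and to the right of the lower part of the dashed curve for LPS with IFNg against unstimulated cells at 18 h (0.39 and 0.28 against -0.00); scaled to library totals the member median of that last panel is -0.21 against -0.54 for all genes.

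The members with the largest fall were Zfp553 and Zfp623, both with a coding region in 1 exon. Zfp553 (ENSMUSG00000045598, chr7:127233061-127238179, plus strand, GRCm38) encodes 12 C2H2 fingers and no KRAB box that a sequence pattern could find. It had 2.04, 1.39 and 1.44 CPM with LPS and IFNg and 5.90, 3.37 and 7.51 with LPS at 1 h, against 15.3, 12.9 and 16.4 with IL-4 and 12.3, 17.8 and 13.3 in unstimulated cells. All 3 libraries with LPS and IFNg were below every LPS library, and those were below every IL-4 and unstimulated library. Against IL-4 the log2 change was -3.18 ± 0.26 (SE), 9.08-fold lower (edgeR adjusted p = 3.1e-12). Exons of Sept1 overlap Zfp553 on the opposite strand, and reads of the pair can be told apart only if the counting used strand.

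Zfp623 (ENSMUSG00000050846, chr15:75940952-75949400, plus strand), with 13 fingers, had 1.11, 0.598 and 1.62 CPM with LPS and IFNg and 2.44, 2.92 and 3.25 with LPS, against 11.4, 11.7 and 8.79 with IL-4 and 9.12, 7.05 and 8.82 in unstimulated cells. The 4 groups kept the same order as for Zfp553, and neither stimulated group with LPS overlapped the other groups. The log2 change of LPS with IFNg against IL-4 was -3.22 ± 0.27, 9.32-fold lower (edgeR adjusted p = 4.5e-12). Zfp526 (chr7:25221425-25227507), another gene with its coding region in 1 exon and with 13 fingers, had 1.67, 1.79 and 2.69 CPM with LPS and IFNg against 9.38, 9.66 and 9.29 with IL-4, a log2 change of -2.18 ± 0.24 (edgeR adjusted p = 4.0e-09). These 2 groups did not overlap, while LPS alone, at 2.50 to 4.27 CPM, overlapped LPS with IFNg.

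Among KRAB genes, Zfp12 (ENSMUSG00000029587, chr5:143235163-143248834, plus strand, 15 fingers) had 2.96, 1.79 and 2.15 CPM with LPS and IFNg and 3.66, 1.80 and 2.00 with LPS, against 10.4, 9.31 and 13.3 with IL-4 and 9.68, 11.2 and 8.45 in unstimulated cells. The 2 groups given LPS overlapped each other and lay under every library of the other groups. Its log2 change against IL-4 was -2.23 ± 0.24 (edgeR adjusted p = 3.0e-09). Zfp120 (chr2:150114406-150136708, minus strand, 9 fingers) had 6.30, 8.37 and 7.00 CPM with LPS and IFNg and 13.0, 11.2 and 10.5 with LPS, against 26.8, 32.6 and 31.5 with IL-4 and 23.9, 22.0 and 23.7 in unstimulated cells. Here LPS with IFNg was below LPS alone in every library, and IL-4 was above unstimulated cells. The log2 change against IL-4 was -2.06 ± 0.13 (edgeR adjusted p = 1.9e-15). Zfp101 (-1.82 ± 0.21), Zfp87 (-1.74 ± 0.17), Zfp709 (-1.70 ± 0.22) and Zfp790 (-1.67 ± 0.21), were also lower with LPS and IFNg than with IL-4. Their edgeR adjusted p ran from 3.1e-10 to 1.6e-07.

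**Figure D3:**
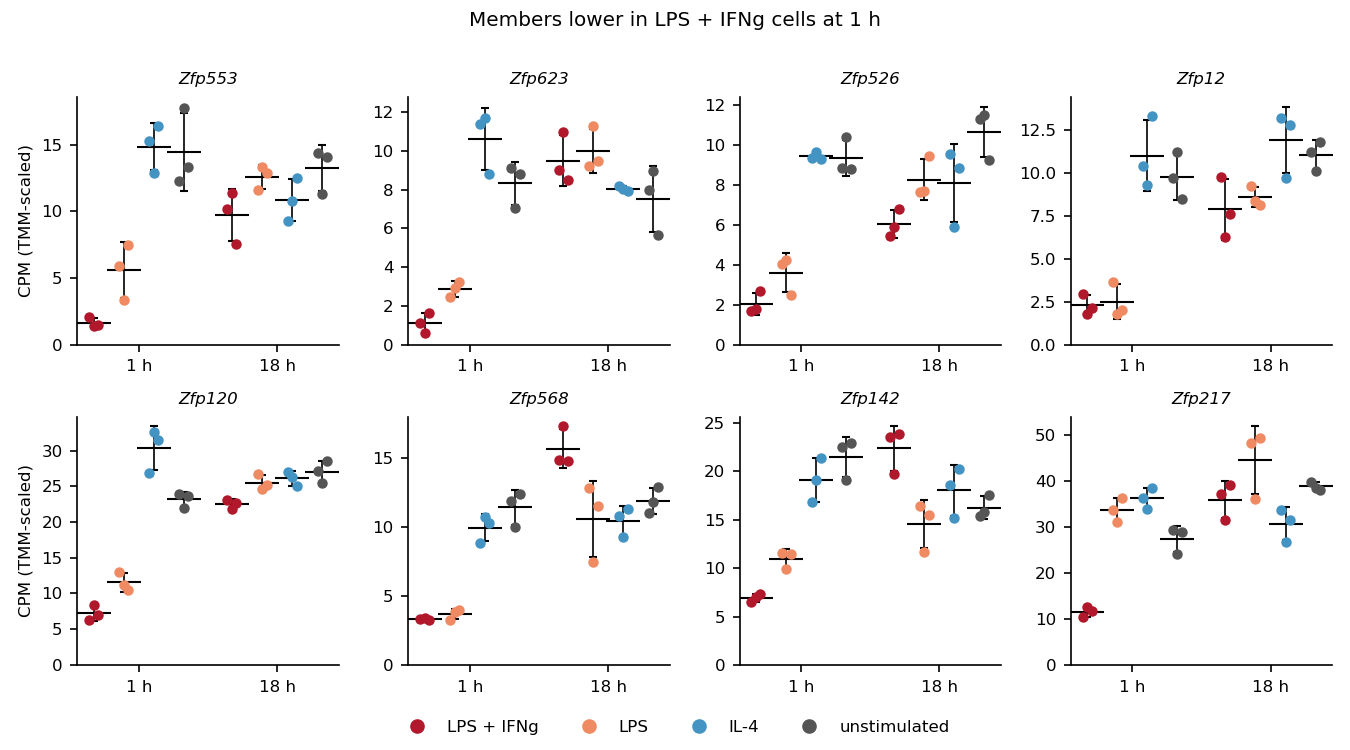
CPM (TMM-scaled) of 8 members in each library at 1 h and 18 h, with the mean and SD of each group of 3 libraries (LPS with IFNg, LPS, IL-4, unstimulated, left to right). The LPS with IFNg libraries at 1 h lie below every IL-4 and unstimulated library at 1 h in all 8 panels, for Zfp217 at 10.4 to 12.6 CPM while its LPS libraries lie at 31.0 to 36.3 CPM.

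Of the members known for silencing retroelements or guarding imprints, all 3 fell at 1 h with LPS and IFNg against IL-4 (14.8% of all genes fell). Zfp568, which in mouse embryos silences a placental Igf2 transcript, had 3.34, 3.39 and 3.23 CPM with LPS and IFNg and 3.26, 3.82 and 4.00 with LPS, against 8.88, 10.7 and 10.3 with IL-4 and 11.9, 9.99 and 12.4 in unstimulated cells. Its LPS and LPS with IFNg libraries sat together, far below the others, and the log2 change against IL-4 was -1.57 ± 0.20 (edgeR adjusted p = 1.2e-07). Zfp932, which represses endogenous retroviruses in mouse embryonic stem cells, changed by -1.08 ± 0.26 (edgeR adjusted p = 0.0013), but 45.2% of its transcript windows of 50 bases recur in other transcripts, chiefly of Gm15446, so its counts are uncertain. Zfp445, which maintains imprints, changed by -0.80 ± 0.22 (edgeR adjusted p = 0.0073). Zfp57, Zfp708 and Zfp809, which have such roles too, are not members.

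Transcription factors and cofactors of known role split more evenly. Of 26 such members, 10 fell and 5 rose with LPS and IFNg against IL-4 at 1 h, with a median log2 change of -0.04 (14.8% of all genes fell and 15.5% rose). Zfp217, a partner of LSD1 and CtBP corepressor complexes that is amplified in human breast cancers, fell most. It had 10.4, 12.6 and 11.8 CPM with LPS and IFNg and 33.8, 31.0 and 36.3 with LPS, against 36.3, 34.0 and 38.5 with IL-4 and 29.3, 24.1 and 28.9 in unstimulated cells. The LPS with IFNg libraries were the lowest and stood clear of the other 3 groups. Its log2 change was -1.65 ± 0.14 against IL-4 (edgeR adjusted p = 3.8e-12) and -1.54 ± 0.14 against LPS alone (edgeR adjusted p = 1.8e-10).

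Others of this list fell less. Zfp24, needed for myelination by oligodendrocytes, changed by -1.21 ± 0.12 against IL-4. Zfp687 and Zfp592, subunits of a complex with ZMYND8, changed by -0.98 ± 0.14 and -0.58 ± 0.11. Zfp410, an activator of Chd4, changed by -0.68 ± 0.12, and Zfp143, which binds promoters and chromatin loop anchors, by -0.60 ± 0.16. Zfp746, a substrate of the ligase Parkin, changed by -0.64 ± 0.13. The edgeR adjusted p of these genes ran from 3.8e-10 to 0.0039. Zfp668 (-1.06 ± 0.21), Zfp644 (-0.53 ± 0.14) and Zfp652 (-0.35 ± 0.11) completed the 10.

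Of 11 RNA-binding members, 3 were higher and 3 lower with LPS and IFNg than with IL-4, with a median of -0.12, where 15.5% of all genes were higher and 14.8% lower. On library totals 2 were higher and 7 lower. The 3 that rose were Zfp622, a maturation factor of the large ribosomal subunit, Zfp598, the ubiquitin ligase that senses collided ribosomes, and Zfp106. Zfp622 had 81.5, 70.7 and 83.6 CPM with LPS and IFNg and 63.3, 62.6 and 63.8 with LPS, against 47.1, 41.0 and 48.3 with IL-4 and 35.1, 35.6 and 37.0 in unstimulated cells. The 4 groups did not overlap one another, and the log2 change against IL-4 was 0.79 ± 0.10 (edgeR adjusted p = 2.6e-08). Zfp598 changed by 0.69 ± 0.09 and Zfp106 by 0.27 ± 0.09. Zfp207, which delivers the checkpoint protein BUB3 to kinetochores, fell by 0.21 on the log2 scale, and Zfp593 (-0.44 ± 0.16) and Zfp830 (-0.49 ± 0.18) also fell. Of 4 members with roles in signalling or protein modification, Zfp91, a ubiquitin ligase of the noncanonical NF-kappaB pathway (-0.45 ± 0.08), and Zfp110, a partner of the p75 neurotrophin receptor (-0.88 ± 0.13), fell, and Zfp369 and Zfp451 passed no threshold.

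The members that rose at 1 h with LPS and IFNg were led by Zfp719 and Zfp703. Zfp719 (chr7:43579610-43593235, plus strand, KRAB box and 13 fingers) had 19.1, 21.3 and 25.5 CPM with LPS and IFNg and 19.1, 24.3 and 20.3 with LPS, against 4.69, 3.62 and 4.48 with IL-4 and 6.22, 5.29 and 4.88 in unstimulated cells. Both groups given LPS overlapped each other and stood above all other libraries of that time. The log2 change against IL-4 was 2.35 ± 0.17, 5.09-fold higher (edgeR adjusted p = 1.8e-13). Zfp703 (chr8:26977325-26981461), whose protein held no finger that the C2H2 pattern could find, acts as a corepressor and is amplified in human luminal breast cancers. It had 259, 260 and 276 CPM with LPS and IFNg, 165, 153 and 186 with LPS and 103, 89.1 and 113 with IL-4, against 54.6, 51.9 and 46.7 in unstimulated cells. The 4 groups formed 4 separate steps. Its log2 change was 1.38 ± 0.09 against IL-4 (edgeR adjusted p = 4.3e-15) and 2.37 ± 0.09 against unstimulated cells (edgeR adjusted p = 6.0e-21).

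Zfp281, a regulator of pluripotency genes in embryonic stem cells, had 62.3, 69.1 and 67.7 CPM with LPS and IFNg and 34.6, 35.3 and 48.5 with LPS, against 27.9, 26.2 and 29.9 with IL-4 and 32.9, 31.2 and 31.0 in unstimulated cells. Its LPS with IFNg libraries stood above every other library of that time, and the change against IL-4 was 1.24 ± 0.12 (edgeR adjusted p = 1.3e-10). Zfp263 (chr16:3744093-3750790, plus strand, 9 fingers), whose human counterpart carries SCAN and KRAB domains, had 179, 160 and 198 CPM with LPS and IFNg and 225, 192 and 241 with LPS, against 124, 96.2 and 122 with IL-4 and 79.8, 63.8 and 89.2 in unstimulated cells. The LPS groups overlapped each other, IL-4 lay between, and the change against IL-4 was 0.65 ± 0.11 (edgeR adjusted p = 2.1e-05). Zfp800 (1.06 ± 0.14), Zfp945 (0.97 ± 0.18) and the BTB-type factor Zfp131 (0.83 ± 0.10) rose too. So did Zfp429 (0.77 ± 0.17), though 25.3% of its transcript windows are shared, chiefly with Rsl1.

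The 120 bases before the annotated start are shown for Zfp553 and Zfp12, among the largest falls, and for Zfp719 and Zfp263, which rose, so that the start regions of opposite responses can be read side by side. They are RefSeq windows of GRCm38.p6 on the plus strand, at chr7:127232941-127233060, chr5:143235043-143235162, chr7:43579466-43579585 and chr16:3743979-3744098 in that order. Capitals mark, on either strand, matches to GGGCGG (the GC box), to CCAAT (the CCAAT box) or to CCGGAAG (an ETS factor motif).
Zfp553: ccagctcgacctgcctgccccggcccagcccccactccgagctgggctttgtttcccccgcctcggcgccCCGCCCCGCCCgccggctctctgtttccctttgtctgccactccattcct
Zfp12: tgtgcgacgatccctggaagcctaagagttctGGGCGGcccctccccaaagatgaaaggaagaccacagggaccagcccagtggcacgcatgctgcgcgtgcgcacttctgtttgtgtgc
Zfp719: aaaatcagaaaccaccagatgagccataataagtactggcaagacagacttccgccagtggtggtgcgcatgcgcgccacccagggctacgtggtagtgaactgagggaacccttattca
Zfp263: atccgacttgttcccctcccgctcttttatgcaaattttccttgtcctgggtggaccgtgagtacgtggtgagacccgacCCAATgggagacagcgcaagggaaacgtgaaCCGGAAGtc
The Zfp553 window holds 2 GC boxes that overlap by a base, the Zfp12 window 1, the Zfp263 window a CCAAT box and an ETS motif, and the Zfp719 window none of these letters.

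Windows of 250 bases before the start were matched for 117 members (148 windows), while 29 members had none. A GC box on either strand was found in 58.1% of member windows against 32.7% of all 32851 windows, a CCAAT box in 40.5% against 33.8%, an ETS motif in 12.2% against 6.91% and a TATA box (TATAAA) in 5.41% against 12.4%. Median GC content was 58.0% in member windows against 52.4% in all windows. Of the 84 windows of members lower with LPS and IFNg than in unstimulated cells at 1 h, 56.0% held a GC box and 42.9% a CCAAT box, and of the 15 windows of members that were higher, 80.0% and 33.3%. Both boxes were common in windows of either direction.

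The fall at 1 h was larger among members with a KRAB box found, although degenerate boxes can escape the pattern. Of 55 KRAB members 37 fell and 3 rose against IL-4, with a median of -0.88, and of the other 91, 47 fell and 11 rose, with a median of -0.40. Of all genes tested 14.8% were lower and 15.5% higher in that comparison. The classes also differed in level, taken as the mean CPM over all 24 libraries. Its median over members was 10.7 CPM for KRAB genes and 20.4 CPM for the rest. This level includes the libraries compared, so part of its relation with the change is built in. Under the member median of 15.2 CPM the medians were -0.92 for 42 KRAB genes and -0.83 for 31 others. At or over it they were -0.80 for 13 KRAB genes and -0.24 for 60 others. All 11 members of the class without a KRAB box that rose came from the more abundant 60. The difference between classes was not tested.

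Other features of the proteins and genes went with the size of the change. Members with 9 or more fingers had a median of -0.83 (57 of 87 lower, 6 higher), those with 4 to 8 fingers -0.48 (19 of 34 lower, 3 higher) and those with 0 to 3 fingers -0.20 (8 of 25 lower, 5 higher), all for LPS with IFNg against IL-4 at 1 h. In that comparison 14.8% of all genes were lower and 15.5% higher. Mean level was taken over all 24 libraries, those compared included, so part of its relation with the change is built in. Across the 146 members the change ran with mean level (Spearman's rho 0.46) and against the number of fingers (-0.28). These are descriptions across genes of the same libraries, and features such as level, fingers and KRAB box go together. The 18 members with their coding region in 1 exon, a grouping made after the values were seen, had a median of -0.81 with 14 lower and 2 higher, against -0.49 for 128 members with more coding exons, 70 lower and 12 higher. Leaving out 16 members with 10% or more of their windows shared left 76 lower and 13 higher of 130, and leaving out 37 members with exons of other genes on the opposite strand left 62 lower and 11 higher of 109. Among the 37 are Zfp687, Zfp706, Zfp777, Zfp800 and Zfp961, whose values are given elsewhere. The same holds for Zfp52, Zfp90, Zfp106, Zfp142, Zfp143, Zfp319, Zfp593, Zfp597, Zfp608, Zfp652, Zfp668 and Zfp704. Exons of other genes on the same strand overlap 9 members, Zfp87, Zfp91, Zfp644 and Zfp652 among them. Strand cannot tell such reads apart, and no count was made without these 9.

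LPS alone at 1 h, the contrast that entered the choice, is given without p-values, and its counts past the threshold are descriptions that support nothing further. The median log2 change of the members was -0.37, with 67 called lower and 10 higher (22.1% of all genes were called, 11.4% lower and 10.7% higher). The largest decreases were -1.94 for Zfp12, -1.85 for Zfp324, -1.63 for Zfp568, -1.54 for Zfp623, -1.51 for Zfp81 and -1.48 for Zfp90, and the largest increases were 1.94 for Zfp719, 1.89 for Zfp131 and 1.71 for Zfp703. In the 3 LPS libraries the median member stood at -0.35, -0.40 and -0.34 from the mean of unstimulated cells, with KRAB medians of -0.75 to -0.60. The response to LPS at 18 h exceeded that at 1 h for 77 members and was below it for 13 (54.2% of all genes were called, 27.1% in each direction), again as a description.

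IL-4 at 1 h left the family as a whole near its unstimulated level. The median member changed by -0.02, with no member past 2-fold, 9 higher and 2 lower (6.43% of all genes were called, 3.22% higher and 3.21% lower). Zfp703 rose most, to 103, 89.1 and 113 CPM with IL-4 against 54.6, 51.9 and 46.7 in unstimulated cells (log2 change 0.99 ± 0.10, edgeR adjusted p = 8.6e-10). Zfp263 (0.57 ± 0.11), Zfp654 (0.68 ± 0.15), Zfp87 (0.64 ± 0.14) and Zfp217 (0.40 ± 0.12) were among the others that rose. Zfp275 (-0.61 ± 0.11, edgeR adjusted p = 1.5e-04) and Zfp516 (-0.54 ± 0.13, edgeR adjusted p = 0.0086), an activator of thermogenic genes in brown fat, fell. The count of 11 was 6 without unstimulated 1 h replicate 2 or IL-4 1 h replicate 3, and 7 without IL-4 1 h replicate 1.

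Adding IFNg to LPS at 1 h lowered 18 members and raised 10, with a median of -0.13 (11.8% of all genes were called, 5.26% lower and 6.52% higher). Among members at 5 CPM or more in these libraries, Zfp131 followed Zfp217 in the size of the fall, with 43.7, 41.2 and 45.9 CPM with LPS and IFNg against 88.3, 98.4 and 87.8 with LPS. Unstimulated cells had 24.2, 23.4 and 26.5 CPM of it, so the level with LPS and IFNg lay between the others without overlap. The log2 change against LPS was -1.07 ± 0.09 (edgeR adjusted p = 6.1e-12). Zfp961 went the other way, with 8.15, 8.17 and 9.87 CPM with LPS and IFNg against 3.66, 2.92 and 2.50 with LPS, a change of 1.51 ± 0.24 (edgeR adjusted p = 1.5e-05). Its level with LPS and IFNg overlapped the 8.57, 7.35 and 9.39 CPM of unstimulated cells. Exons of Cyp4f18 overlap Zfp961 on the opposite strand, and whether the counting used strand is not stated. Zfp608 (1.06 ± 0.18), Zfp945 (0.83 ± 0.20), Zfp281 (0.76 ± 0.12) and Zfp703 (0.66 ± 0.09) rose as well. Zfp52 (-0.93 ± 0.17), Zfp768 (-0.90 ± 0.19) and Zfp597 (-0.85 ± 0.21) fell, as did Zfp553 (-1.76 ± 0.34) and Zfp623 (-1.32 ± 0.38), whose means here were under 5 CPM.

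At 18 h most called members lay above unstimulated cells when scaled by TMM and below them when scaled to library totals. With LPS and IFNg 71 members were higher and 26 lower, with a median of 0.32 (72.0% of all genes were called, 36.0% higher and 36.1% lower). On library totals 27 were higher and 63 lower, with a member median of -0.21 against -0.54 for all genes. With LPS alone 43 were higher and 19 lower under TMM, with a median of 0.20 (63.0% of all genes were called, 31.7% higher and 31.3% lower), and 14 higher and 60 lower on library totals, with a member median of -0.21 against -0.41 for all genes. The members thus lay above the median gene. Rescaling shifts all genes of a library alike, so this gap could not differ between the scalings. The direction of the members against unstimulated cells depended on the scaling. Without LPS 18 h replicate 2 and IL-4 18 h replicate 2, 50 members were higher and 16 lower with LPS. Under TMM 30 of 55 KRAB members were higher and 9 lower with LPS and IFNg at 18 h (median 0.39), beside 41 and 17 of the other 91 (median 0.28). On library totals 11 KRAB members were higher and 18 lower, and 16 and 45 of the others. Macrophage markers summed to 12104 to 12437 CPM with LPS and IFNg and 23596 to 25011 with LPS, against 14697 to 16534 in unstimulated cells at 18 h, and neutrophil markers to 26.5 to 50.8 and 103 to 160 against 94.3 to 149 CPM. The part of these shifts in the members' values was not tested.

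Zfp800, a repressor of enteroendocrine fate in human gut organoids, was the member with the largest rise at 18 h. It had 153, 152 and 166 CPM with LPS and IFNg and 33.1, 23.3 and 33.9 with LPS, against 14.4, 17.6 and 17.2 in unstimulated cells. The LPS with IFNg libraries stood clear of the other groups, and LPS alone stood above unstimulated cells. The log2 change was 3.25 ± 0.13 against unstimulated cells, 9.53-fold higher (edgeR adjusted p = 7.1e-21), and 2.37 ± 0.12 against LPS (edgeR adjusted p = 3.6e-17). Exons of 6530409C15Rik overlap Zfp800 on the opposite strand, and whether the counting used strand is not stated. Zfp821 responded to both LPS groups, with 29.3, 31.3 and 28.6 CPM with LPS and IFNg and 31.8, 40.7 and 36.5 with LPS, against 3.89, 4.77 and 5.80 in unstimulated cells. Its log2 changes were 2.61 ± 0.16 with LPS and IFNg and 2.90 ± 0.15 with LPS (edgeR adjusted p = 2.1e-16 and 1.3e-17).

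Zfp945, a KRAB gene at chr17:22846697-22867134, had 31.2, 33.9 and 36.6 CPM with LPS and IFNg and 9.95, 8.96 and 8.32 with LPS, against 4.91, 8.50 and 7.99 in unstimulated cells at 18 h. Only the libraries with IFNg stood apart, and the change against LPS was 1.89 ± 0.16 (edgeR adjusted p = 8.4e-12). Zfp777 showed a split, with 30.1, 31.1 and 33.9 CPM with LPS and IFNg and 11.4, 13.8 and 9.46 with LPS, against 16.4, 13.7 and 21.3 in unstimulated cells. The LPS with IFNg libraries stood apart, and the highest LPS library overlapped the lowest unstimulated one. It was higher than unstimulated cells with LPS and IFNg (0.89 ± 0.13, edgeR adjusted p = 1.9e-07) and lower with LPS (-0.58 ± 0.15, edgeR adjusted p = 0.0012). Zfp276 had 100, 100 and 102 CPM with LPS and IFNg and 60.3, 62.5 and 50.3 with LPS, against 31.2, 30.1 and 28.5 in unstimulated cells. Its exons overlap those of Fanca and Vps9d1 on the opposite strand. In all, IFNg on top of LPS at 18 h gave 44 members higher and 15 lower (47.3% of all genes were called, 23.9% higher and 23.4% lower). With each replicate left out in turn, 33 to 44 members were higher and 9 to 15 lower. On library totals the split was 32 and 27.

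Of the 26 transcription factors and cofactors, 16 were higher and 4 lower at 18 h with LPS and IFNg under TMM (median 0.44), where 36.0% of all genes were higher and 36.1% lower. With LPS 14 were higher and 3 lower (median 0.28), where 31.7% of all genes were higher and 31.3% lower. On library totals the splits turned to 6 higher and 9 lower with LPS and IFNg and to 3 higher and 9 lower with LPS. Zfp281 was among those higher, with 77.0, 85.2 and 91.8 CPM with LPS and IFNg and 69.0, 49.2 and 66.4 with LPS, against 27.6, 29.1 and 26.6 in unstimulated cells. Zfp292 (1.28 ± 0.18), Zfp516 (0.96 ± 0.14), Zfp407 (0.62 ± 0.13) and Zfp148 (0.58 ± 0.09) were others that rose with LPS and IFNg. The 4 that fell were Zfp395, Zfp367, Zfp704 (-1.11 ± 0.15) and Zfp608 (-0.80 ± 0.19). Of the retroelement and imprint genes, Zfp932 (1.26 ± 0.20, edgeR adjusted p = 9.0e-07) and Zfp568 (0.39 ± 0.15, edgeR adjusted p = 0.017) rose under TMM. Zfp445 had 0.20 ± 0.20 (edgeR adjusted p = 0.40). On library totals the median of all genes in this comparison was -0.54. Rises under TMM of about that size or less, as for Zfp568, Zfp148 and Zfp407, thus depended on the scaling.

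**Figure D4:**
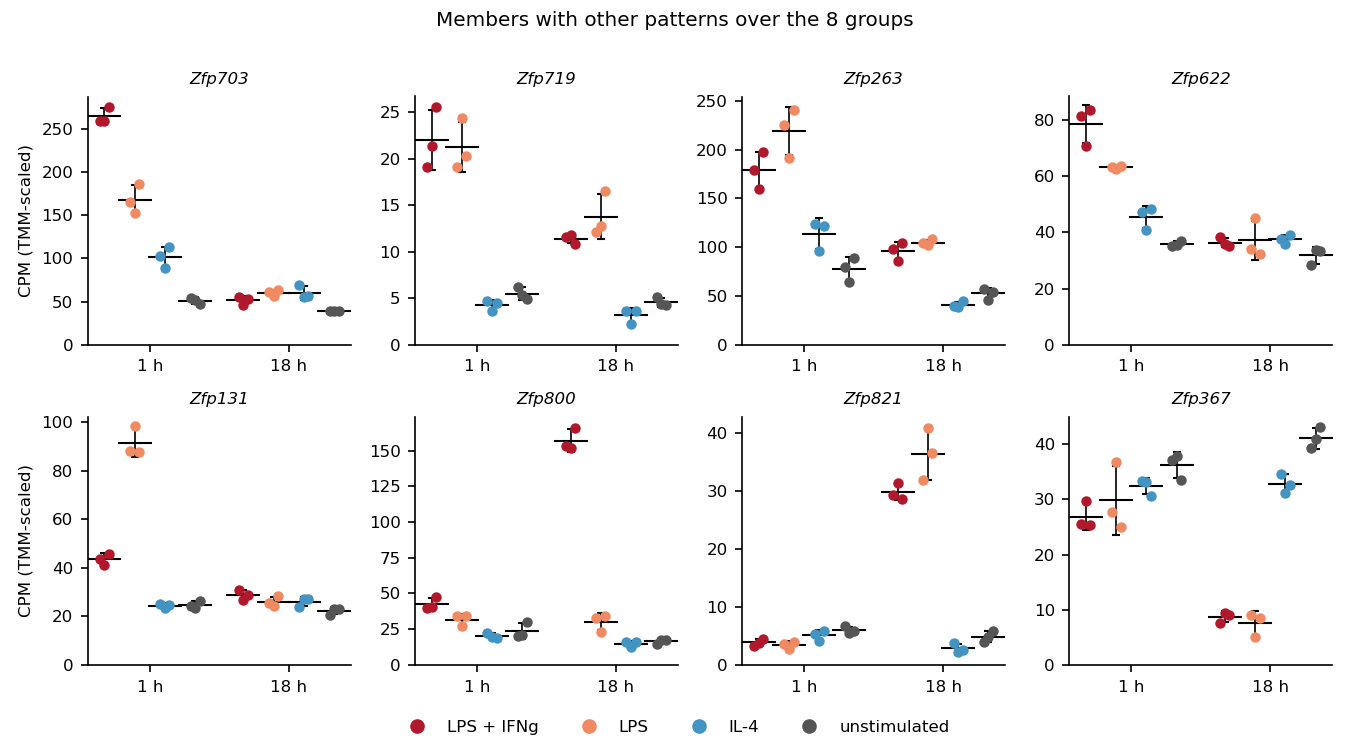
CPM (TMM-scaled) of 8 members with other patterns in each library at 1 h and 18 h, with the mean and SD of each group of 3 libraries (LPS with IFNg, LPS, IL-4, unstimulated, left to right). Zfp703 is highest in LPS with IFNg at 1 h (259 to 276 CPM), Zfp131 in LPS at 1 h (87.8 to 98.4 CPM) and Zfp800 in LPS with IFNg at 18 h (152 to 166 CPM), while Zfp367 is lowest in both LPS groups at 18 h.

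A smaller set fell strongly at 18 h. Zfp101, the KRAB gene at chr17:33360507-33394641, had 0.776, 1.52 and 2.46 CPM with LPS and IFNg, 2.84, 1.88 and 2.08 with LPS and 19.5, 16.5 and 20.5 with IL-4, against 11.0, 11.3 and 9.88 in unstimulated cells. The LPS groups lay below and IL-4 above every unstimulated library. The log2 changes were -2.79 ± 0.26 with LPS and IFNg, -2.22 ± 0.24 with LPS and 0.80 ± 0.15 with IL-4 (edgeR adjusted p = 1.1e-11, 7.5e-10 and 7.2e-05). Zfp367 had 7.61, 9.48 and 9.09 CPM with LPS and IFNg and 9.06, 5.00 and 8.51 with LPS, against 39.3, 40.9 and 43.1 in unstimulated cells. Its changes were -2.24 ± 0.14 and -2.43 ± 0.15 (edgeR adjusted p = 1.2e-15 and 6.3e-16). Zfp395, whose human counterpart binds the huntingtin gene promoter, averaged 7.60 ± 1.32 CPM with LPS and IFNg, 10.8 ± 2.77 with LPS and 26.2 ± 3.11 with IL-4, against 44.3 ± 0.835 CPM in unstimulated cells (SD, n = 3 each). All 3 stimuli left it below every unstimulated library, with changes of -2.53 ± 0.14 with LPS and IFNg, -2.03 ± 0.14 with LPS and -0.76 ± 0.11 with IL-4 (edgeR adjusted p = 3.7e-17, 6.3e-15 and 1.8e-06).

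IL-4 at 18 h lowered 20 members and raised 10, with a median of -0.02 and none past 2-fold (39.2% of all genes were called, 20.1% lower and 19.1% higher). Zfp687 averaged 12.6 ± 1.09 CPM with IL-4 and 22.3 ± 1.17 CPM in unstimulated cells (SD, n = 3 each) (-0.83 ± 0.13, edgeR adjusted p = 5.3e-06). Zfp467, which acts in the choice of marrow stromal cells between bone and fat, had 5.56, 5.79 and 6.41 CPM with IL-4 against 10.7, 8.80 and 13.3 in unstimulated cells (-0.88 ± 0.20, edgeR adjusted p = 5.5e-04). Zfp706 had 122, 134 and 122 CPM with IL-4 against 103, 91.6 and 94.2 in unstimulated cells (0.39 ± 0.08, edgeR adjusted p = 2.7e-04). The groups did not overlap for any of these 3 genes. Of the transcription factor list 10 members were lower and 3 higher with every library kept. That list was not recounted with libraries left out. The total of 30 fell to 14 without IL-4 18 h replicate 2, to 15 without unstimulated 18 h replicate 3 and to 18 without unstimulated 18 h replicate 1. Without LPS 18 h and IL-4 18 h replicate 2 together, 10 members were lower and 12 higher, so the lean toward lower calls did not hold without them. The response to IL-4 differed between 18 h and 1 h for 9 members, 2 higher and 7 lower at 18 h (21.3% of all genes were called, 10.0% higher and 11.3% lower).

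Most members lower at 1 h were not called lower at 18 h. Of the 83 members lower with LPS and IFNg than in unstimulated cells at 1 h, 39 were higher than unstimulated cells at 18 h, 16 were lower and 28 were not called, under TMM, where 36.0% of all genes were higher and 36.1% lower at 18 h. On library totals 118 were lower at 1 h, and of these 15 were higher, 56 lower and 47 not called at 18 h. Of the 13 members higher at 1 h, 10 were higher at 18 h. These 2 comparisons share no library. The response at 18 h exceeded that at 1 h for 97 members and was below it for 16 by an interaction contrast, with a median difference of 0.79 (63.9% of all genes were called, 31.7% higher and 32.1% lower), and the split was 77 and 20 on library totals. Zfp623 had 8.52 to 11.0 CPM at 18 h with LPS and IFNg, against 5.64 to 8.95 CPM in unstimulated cells (0.33 ± 0.18, edgeR adjusted p = 0.098). Zfp324 had no more than 1.44 CPM at 1 h with LPS and IFNg, against 6.64, 6.76 and 6.01 in unstimulated cells, and 18.2, 14.6 and 17.4 CPM at 18 h, against 8.30, 11.6 and 8.15. It thus lay below all unstimulated libraries at 1 h and above them at 18 h, with a difference between the responses of 3.06 ± 0.37 (edgeR adjusted p = 1.0e-08). Zfp101 was lower at both times, at -1.36 ± 0.22 and -2.79 ± 0.26.

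**Figure D5:**
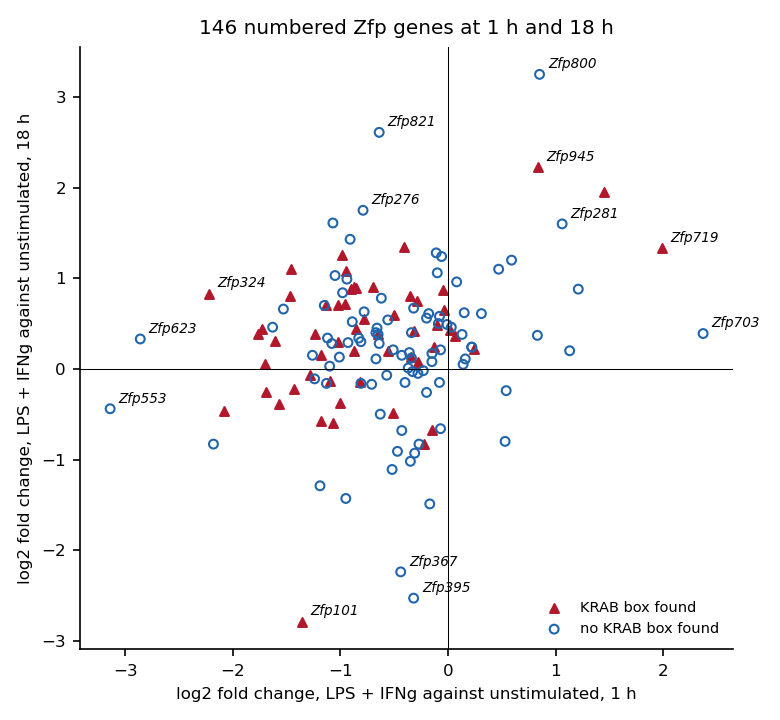
Log2 fold change of LPS with IFNg against unstimulated cells at 18 h (vertical) and at 1 h (horizontal), 1 point for each of the 146 genes, TMM-scaled. Most points lie left of 0 at 1 h and above 0 at 18 h (medians -0.54 and 0.32), the second of which is -0.21 on library totals, and Zfp101, Zfp367 and Zfp395 lie lowest at 18 h.

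Unstimulated cells at 18 h differed from those at 1 h for 15 members, 5 higher and 10 lower (11.9% of all genes were called, 3.97% higher and 7.93% lower), and for 9 members without unstimulated 1 h replicate 1. On library totals the split turned to 8 higher and 5 lower. Zfp516 (-0.75 ± 0.14, edgeR adjusted p = 4.0e-04) and Zfp41 (0.70 ± 0.17, edgeR adjusted p = 0.0053) were among them.

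Members lie in clusters along the genome. Chromosome 7 held 31, of which 24 were lower and 1 higher at 1 h with LPS and IFNg than in unstimulated cells, and chromosome 17 held 18, of which 10 were lower and 2 higher. All 5 members of a cluster at chr7:29768552-30169750 (Zfp84, Zfp790, Zfp568, Zfp260 and Zfp146) were lower. In a cluster of 10 members at chr17:21008903-22867134, which includes Zfp160, Zfp758 and Zfp945, 5 were lower and 1 higher at 1 h, and 8 were higher and 1 lower at 18 h under TMM. Of 7 members at chr7:127233061-127885996, which includes Zfp553, 5 were lower at 1 h. Over all 12 clusters, 36 of 54 members were lower and 2 higher at 1 h, where 14.6% of all genes were lower and 14.7% higher, and 24 were higher and 7 lower at 18 h under TMM, where 36.0% of all genes were higher and 36.1% lower. On library totals the split of the 54 at 18 h turned to 9 higher and 23 lower, and the cluster of 10 had 4 higher and 2 lower. In the clusters of 3 that hold Zfp868 and Zfp961, 1 member each was lower at 1 h. Clustered paralogs can share reads, and such neighbours are not independent observations.

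Related families outside the numbered symbols also had more members lower than higher at 1 h. Against IL-4, 13 of 19 Zfp genes with a letter in the symbol were lower and 0 higher (median -1.03), as were 15 of 16 Zscan and Zkscan genes with 0 higher (median -0.96), and 18 of 37 Zbtb genes with 2 higher (median -0.41). Zkscan14 (-2.22 ± 0.33), Zscan22 (-2.04 ± 0.24), Zbtb34 (-2.04 ± 0.24) and Zbtb1 (-1.92 ± 0.13) were among those that fell, with edgeR adjusted p from 4.4e-14 to 1.4e-06. Of 35 genes of the corepressor machinery of KRAB proteins, 4 were lower and 6 higher, with a median of 0.04, a share near that of all genes (14.8% lower and 15.5% higher). On library totals 16 were lower and 3 higher. Trim28 had -0.17 ± 0.07 (edgeR adjusted p = 0.071) and Setdb1 -0.15 ± 0.08 (edgeR adjusted p = 0.18), while Daxx (1.70 ± 0.09) and Resf1 (1.26 ± 0.09), 2 silencing factors, rose (edgeR adjusted p = 6.3e-17 and 1.9e-13). At 18 h with LPS and IFNg against unstimulated cells, 18 of the 35 were lower and 8 higher (median -0.24), where 36.1% of all genes were lower and 36.0% higher. Trim28 fell (-0.89 ± 0.07, edgeR adjusted p = 4.4e-13), as did Cbx5 (-3.41 ± 0.17) and the replication-linked factors Hells (-5.00 ± 0.26) and Uhrf1 (-6.57 ± 0.28).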

How the data were processed

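Libraries were prepared with a stranded mRNA kit, per the labels' protocols. The authors deposited raw read counts per Ensembl gene, 1 headerless file for each of the 24 libraries. STAR, featureCounts, DESeq2, deepTools and the build GRCm38 are named, without roles, per the submitters' processing notes. Their versions are not given in the sources used here, nor are the strand setting of the counting and the annotation release. The members, lists and tests were chosen with earlier results of these data known.

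Of 43629 identifiers, 42548 matched GENCODE M21. Genes were filtered by filterByExpr (minimum count 10), leaving 12765 tested, scaled by TMM and fitted with all 8 groups in edgeR 4.0.16 (R 4.3.3, quasi-likelihood, robust). P-values were two-sided and Benjamini-Hochberg adjusted over all genes tested, and calls were made under 0.05 in 10 comparisons of groups and 3 of responses. The fit was also run on simulated data built from the levels of unstimulated cells at 1 h. Some genes were changed there only in the LPS with IFNg group at 1 h. Such data lack the wide changes seen at 18 h, and no result here rests on them. A standard error is the log2 change divided by the square root of F. KRAB boxes and C2H2 fingers were found by pattern in translated GENCODE M21 transcripts.

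Members were named if called, at 5 CPM or more on average and without overlap between groups, the 10 lowest and 10 highest of each comparison. For LPS at 1 h the 12 lowest and 6 highest were taken. In the 3 comparisons of responses no condition on overlap was applied. Members with a listed role could be named whether called or not. A member named in 1 comparison could be named in the others.

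Alternatives were RLE or library size scaling, no count filter, DESeq2 1.42.0, limma-voom (limma 3.58.1), a fit of only those groups compared, replicate as a block, calls at 0.01 and each replicate left out. Leaving out replicate 2 of LPS and of IL-4 at 18 h together was added after the data were seen. Deviations of same-numbered libraries from their group means correlated from -0.33 to 0.77. They passed 0.1 in 54 of 84 cases and for all 3 numbers in 9 of 28 pairs of groups, LPS with IFNg and IL-4 at 1 h among them, but not in all, so the replicate number was fitted as a block only as an alternative.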

Additional observations from a re-analysis of the deposited data

Results flagged for a closer look

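These results are listed because the response differed between the times by a test of the difference itself, and no cause was tested. The response to LPS with IFNg differed between 18 h and 1 h for 113 of 146 members by the interaction contrast, and for 63.9% of all genes tested. Differences are the log2 change at 18 h minus that at 1 h, each against unstimulated cells of its time, with edgeR adjusted p-values under 0.05.

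The response was higher at 18 h for Zfp821 (3.25), Zfp623 (3.20), Zfp324 (3.06), Zfp553 (2.70), Zfp319 (2.68), Zfp160 (2.55), Zfp276 (2.55), Zfp800 (2.40), Zfp35 (2.34) and Zfp952 (2.26). Among these, Zfp800 was above unstimulated cells at both times, and Zfp276 was below them at 1 h (-0.79 ± 0.11) and above them at 18 h (1.75 ± 0.09).

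It was lower at 18 h for Zfp395 (-2.21), Zfp703 (-1.97), Zfp367 (-1.80), Zfp101 (-1.43), Zfp608 (-1.33), Zfp692 (-1.32), Zfp622 (-0.94), Zfp598 (-0.78), Zfp275 (-0.67) and Zfp719 (-0.66). Zfp608 and Zfp598 were above unstimulated cells at 1 h (0.53 ± 0.16 and 0.54 ± 0.09) and below them at 18 h (-0.80 ± 0.19 and -0.24 ± 0.09).

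The response to IL-4 differed between the times for 9 of 146 members, against 21.3% of all genes tested. It was lower at 18 h for Zfp263 (-0.93), Zfp41 (-0.89), Zfp467 (-0.80), Zfp687 (-0.80), Zfp217 (-0.75), Zfp87 (-0.60) and Zfp120 (-0.42), and higher for Zfp771 (0.71) and Zfp706 (0.43). The response of Zfp263 was 0.57 ± 0.11 at 1 h and -0.36 ± 0.13 at 18 h, and that of Zfp217 was 0.40 ± 0.12 at 1 h and -0.35 ± 0.11 at 18 h.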

How the results depend on the processing

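At an adjusted p under 0.01 the members called were 6 of 11 for IL-4 at 1 h, 11 of 30 for IL-4 at 18 h, 5 of 9 for the IL-4 interaction and 8 of 15 for unstimulated cells over time. DESeq2 called 19 for IL-4 at 18 h and 5 for the IL-4 interaction. The cause of the DESeq2 difference was not tested. Other counts of members called stayed within 1.5 times under all alternatives that keep every library.

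With each replicate left out in turn, members called ranged from 90 to 96 for LPS with IFNg against unstimulated cells at 1 h, 88 to 95 against IL-4 and 20 to 27 against LPS. They ranged from 64 to 77 for LPS and 6 to 8 for IL-4 at 1 h, and at 18 h from 88 to 97 for LPS with IFNg, 50 to 64 for LPS, 14 to 28 for IL-4 and 47 to 57 for LPS with IFNg against LPS. The range was 9 to 16 for unstimulated cells over time, 109 to 115 for the LPS with IFNg interaction, 81 to 95 for LPS and 5 to 12 for IL-4, where 5 came without unstimulated 18 h replicate 3.

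The replicate block gave 101 and 99 members called for LPS with IFNg at 1 h against unstimulated cells and IL-4, 100 at 18 h, 66 for LPS and 32 for IL-4 at 18 h, 13 for IL-4 at 1 h and 115 for the LPS with IFNg interaction. No named call was lost under the block.

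Library size scaling moved the share of higher calls by over 10 points. It was 30.0% against 73.2% for LPS with IFNg at 18 h, 18.9% against 69.4% for LPS at 18 h, 54.2% against 74.6% for LPS with IFNg against LPS at 18 h and 21.9% against 35.7% at 1 h. It was 13.3% against 33.3% for IL-4 at 18 h, 61.5% against 33.3% for unstimulated cells over time and 8.3% against 22.2% for the IL-4 interaction.

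The 231 named values were picked as called in the main fit, so keeping the call was partly built in. They include values of LPS at 1 h and of the LPS response between times, which are descriptions only. Of the 231, 191 kept their call under every alternative, 40 lost it under at least 1, and 0 reversed. Those lost under 10 or more alternatives were Zfp771, Zfp467 and Zfp87 in the IL-4 interaction, Zfp771 and Zfp984 for IL-4 at 18 h and Zfp160 for IFNg at 1 h. Depth limits the low members most: at 4181890 to 8122945 reads a library, members near 1 CPM rest on few reads.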
